A study of Homo sapiens with 6 samples.

Results

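The genes of plasminogen activation and of the control of blood clotting followed here between MCF10.AT1 and MCF10.AT1-R were PLAU, PLAUR, PLAT, SERPINE2, THBS1, F3, TFPI, TFPI2 and PROCR. They were taken by their symbols in the deposited table, which carries 81496 gene symbols, and each of the 9 members has 1 probe set there. MCF10.AT1 is an untreated human breast epithelial cell line that is sensitive to fluvastatin, a preneoplastic derivative of MCF10A transformed with HRAS. MCF10.AT1-R is the resistant line selected from it in rising doses of fluvastatin, an inhibitor of HMG-CoA reductase, from 1 through 5 to 20 µM. Both lines share the MCF10.AT1 origin, the base medium and Trizol extraction, and resistance is represented by 1 selected line, so that its 3 arrays are repeats of that line. Whether fluvastatin was in the medium when RNA was taken is not given in the sources used here. Total RNA was measured on Clariom D arrays, with 3 biological replicates per line, and the comparison asked how the resistant cells differ from the parental cells.

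Plasminogen is a circulating zymogen that is cut to the fibrin- and matrix-degrading protease plasmin by urokinase (PLAU), which acts at the cell surface on its receptor (PLAUR), or by tissue plasminogen activator (PLAT). Serpins such as SERPINE2 inhibit these activators and thrombin. Clotting is started by tissue factor (F3), the receptor of factor VIIa, and is held back by tissue factor pathway inhibitor (TFPI) and by the protein C pathway, in which PROCR is the protein C receptor. Basal mammary cells and keratinocytes in culture are known to make several of these proteins.

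The sequences just before the transcription start are shown for the 3 members that passed the test between the lines (F3, SERPINE2 and TFPI) and for PLAUR. PLAUR holds a match to the AP-1 element, as does F3. The sequences are the 250 bases before each RefSeq start in GRCh38.p14, read on the gene's strand from 5′ to 3′. Capitals mark matches on either strand to the AP-1 element TGACTCA, the GC box GGGCGG, the TATA element TATAAA, the CCAAT box CCAAT, the TEAD element GGAATG or the E-box CACGTG. SERPINE2 has 2 start sites in the table.
F3, chr1:94541760-94542009, minus strand: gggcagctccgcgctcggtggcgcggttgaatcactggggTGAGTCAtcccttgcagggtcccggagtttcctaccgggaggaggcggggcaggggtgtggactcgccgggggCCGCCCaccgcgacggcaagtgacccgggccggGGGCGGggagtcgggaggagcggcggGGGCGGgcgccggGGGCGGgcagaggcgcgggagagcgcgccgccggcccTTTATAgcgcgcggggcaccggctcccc
PLAUR, chr19:43670170-43670419, minus strand: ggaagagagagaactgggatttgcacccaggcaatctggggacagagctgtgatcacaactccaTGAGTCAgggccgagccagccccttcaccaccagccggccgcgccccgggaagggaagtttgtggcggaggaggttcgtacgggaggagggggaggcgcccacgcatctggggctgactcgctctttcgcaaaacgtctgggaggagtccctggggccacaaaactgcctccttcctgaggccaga
SERPINE2 start 1, chr2:224038641-224038890, minus strand: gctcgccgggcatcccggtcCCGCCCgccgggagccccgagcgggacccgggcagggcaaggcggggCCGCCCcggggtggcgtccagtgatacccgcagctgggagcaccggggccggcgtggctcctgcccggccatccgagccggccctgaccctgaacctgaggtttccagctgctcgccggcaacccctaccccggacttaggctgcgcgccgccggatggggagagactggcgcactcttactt
SERPINE2 start 2, chr2:224031479-224031728, minus strand: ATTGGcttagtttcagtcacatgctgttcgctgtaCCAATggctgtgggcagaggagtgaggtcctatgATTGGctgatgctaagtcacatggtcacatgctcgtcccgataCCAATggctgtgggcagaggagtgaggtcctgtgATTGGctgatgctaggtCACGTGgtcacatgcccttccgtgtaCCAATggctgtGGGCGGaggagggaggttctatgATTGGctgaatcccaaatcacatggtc
TFPI, chr2:187554436-187554685, minus strand: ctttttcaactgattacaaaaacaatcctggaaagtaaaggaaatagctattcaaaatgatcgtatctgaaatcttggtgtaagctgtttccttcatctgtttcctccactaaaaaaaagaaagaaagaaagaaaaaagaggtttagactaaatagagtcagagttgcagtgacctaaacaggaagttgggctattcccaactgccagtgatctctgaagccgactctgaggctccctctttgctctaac

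F3 had 1 AP-1 match, from -210 to -204 relative to the start, together with 4 GC boxes and 1 TATA match. PLAUR had 1 AP-1 match, from -186 to -180, and no match to the other 5 motifs. The windows of PLAU and THBS1, which also read higher on every resistant array, held no AP-1 match. The AP-1 letters occurred at least once in 4.2% of the 35116 windows of the same length in the table. Windows with at least 1 match made up 42.6% for GC boxes, 10.7% for TATA, 11.9% for TEAD and 6.3% for E-boxes. Start 2 of SERPINE2 held 7 CCAAT boxes, a motif found at least once in 32.0% of windows, with 1 GC box and 1 E-box. Most of these CCAAT boxes lie in a repeated stretch, beginning at -215, -138 and -61 and at -181, -104 and -27. How often other windows held several CCAAT boxes was not counted. Start 1 of SERPINE2 held 2 GC boxes, and the TFPI window had no match to any of the 6. The window of TFPI was also the poorest in G and C of those of the members, at 38.4% against a median of 58.0% over all windows, and that of F3 was the richest at 78.0%. THBS1 held 4 GC boxes, 1 CCAAT box and 1 TEAD match, and the windows of PLAU, TFPI2 and PROCR held between 1 and 3 matches each. A match describes the letters only, and promoters were found in the table for 8 of the 9 members.

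**Figure D1:**
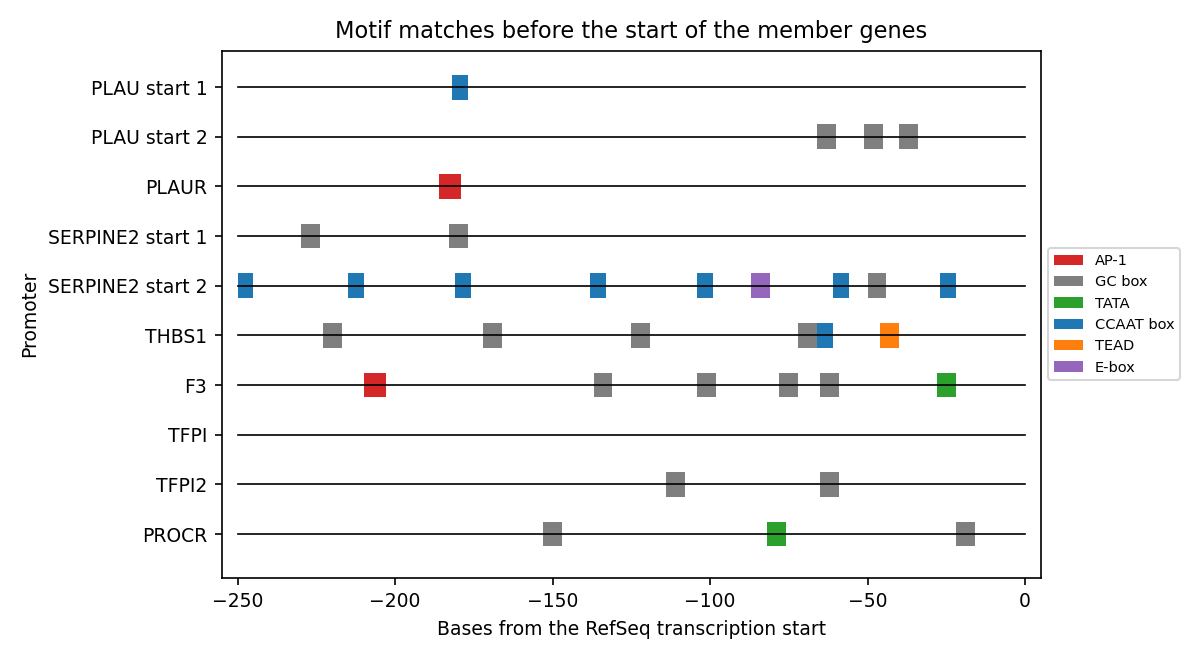
Motif matches in the 250 bases before the RefSeq transcription starts of 8 member genes (PLAU and SERPINE2 have 2 starts each). The x axis gives bases from the start, each row is 1 promoter window, and coloured blocks are matches on either strand. AP-1 matches stand in F3 and PLAUR, 7 CCAAT boxes stand at start 2 of SERPINE2, most of them in a repeated stretch, and the TFPI row is empty.

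The values are log2 expression from RMA, 1 per probe set and array. A01 and A02 were the MCF10.AT1 arrays used, B02, B03 and B04 those of MCF10.AT1-R, and A03, a further MCF10.AT1 array that the study removed as an outlier, is given apart. Pearson correlations over all transcript probe sets were 0.967 to 0.977 among the 5 arrays and 0.779 to 0.795 between A03 and each of them. On A03, 8 of the 9 members were lower than on every other array. The 95th percentile of the 612 negative control probe sets lay between 2.88 and 3.14 on the 5 arrays, and 8 of the 9 members exceeded it on all of them, TFPI2 being the exception. Of the epithelial markers examined, all 8 on the basal list and 4 of 6 luminal ones were above the negative controls on all 5 arrays. The former were CDH1, CDH3, EGFR, ITGA6, KRT5, KRT14, KRT17 and TP63, of which CDH1 is not particular to basal cells. The latter were GATA3, KRT8, KRT18 and KRT19. All 9 members passed the filter on low and invariant probe sets, which left 51457 probe sets for the limma test.

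In MCF10.AT1-R, tissue factor rose and the inhibitors SERPINE2 and TFPI fell, calls that were made with both filters and were all lost with A03 added, without the filter on invariant probe sets, without any filter, or with values raised to the negative controls. These were the 3 members of 9 past an FDR of 5%, which 1.2% of all probe sets tested passed. Of the 3, 1 was higher, where 0.758% of all probe sets tested were called higher, and 2 were lower, where 0.447% were called lower. In 7 members the values of parental and resistant arrays were fully separate, which held for 26.7% of all probe sets tested. That share includes probe sets within the negative controls, since the filter on low probe sets kept means above 1.88. Of 29 other plasminogen genes described below, all resistant arrays were above in 6 and below in 7. These counts were 6 and 6 of 31 coagulation genes, and 4 and 6 of 15 on the thrombospondin list, genes removed by the filters included. Every resistant array exceeded every parental one for F3, PLAU, PLAUR and THBS1, an order found in 12.9% of all probe sets tested. Every resistant array was lower for SERPINE2, TFPI and PLAT, an order found in 13.8%. PROCR and TFPI2 overlapped. The median log2 change of the members was -0.15, beside -0.01 for all probe sets tested. That median is the value of TFPI2, which was not above the negative controls on any of the 5 arrays. In RNA from whole cultures, fewer cells of a type and less RNA per cell cannot be told apart.

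**Figure D2:**
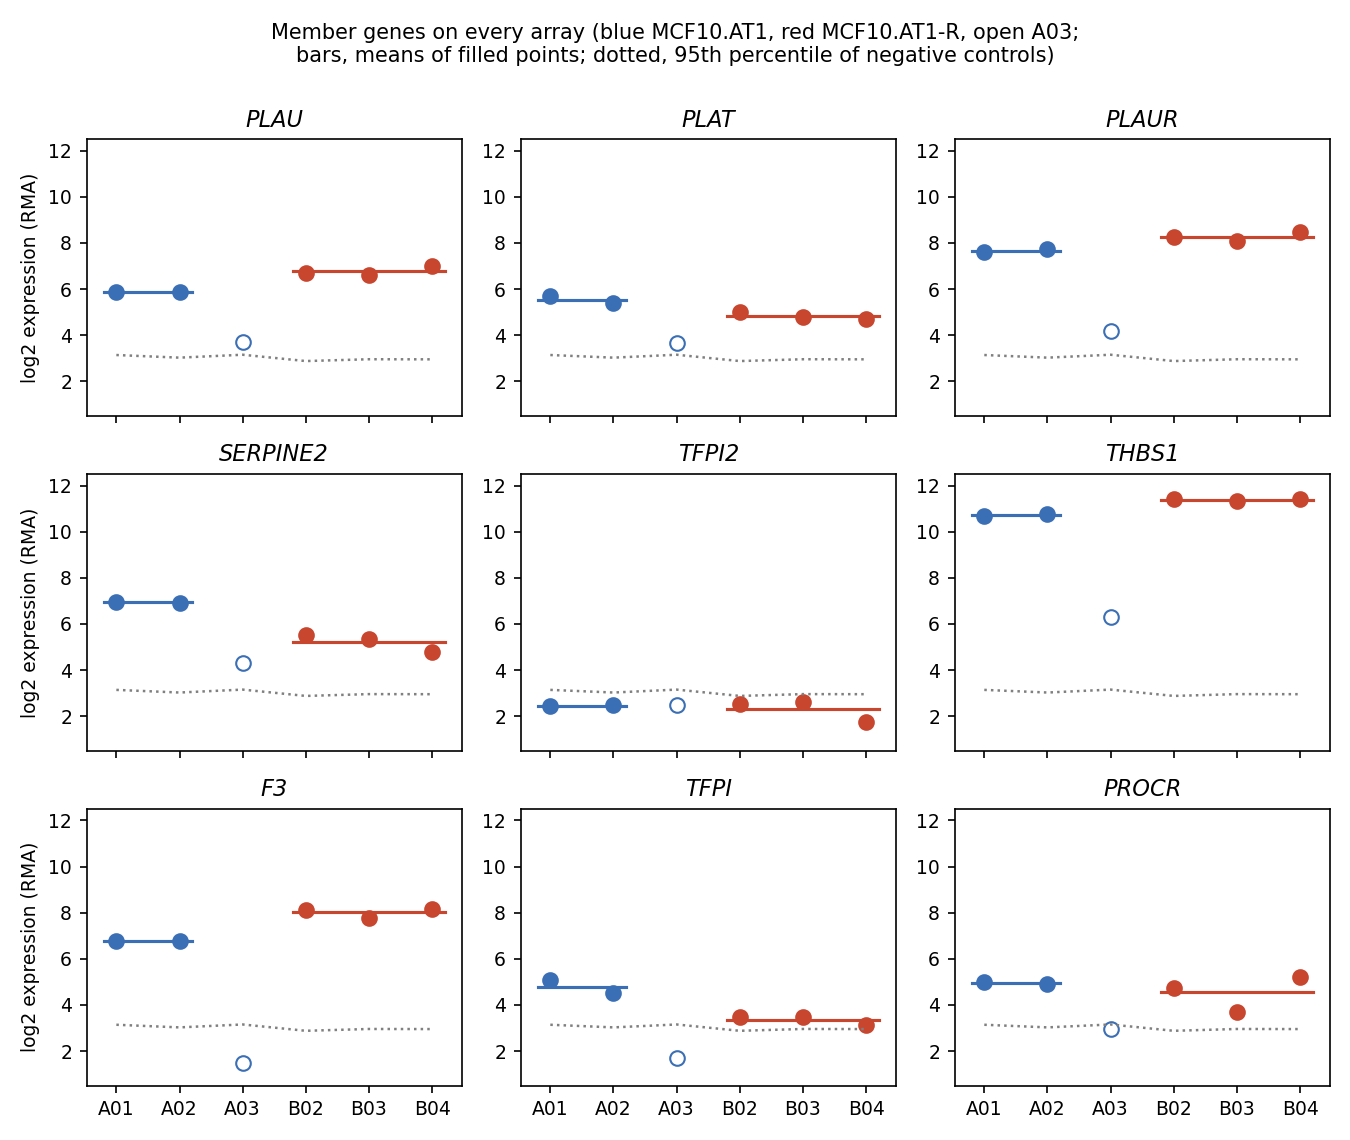
Log2 expression of the 9 members on every array, with 1 panel per gene and the arrays on the x axis. Filled blue points are MCF10.AT1, filled red points are MCF10.AT1-R, the open point is A03, bars are the means of the filled points and the dotted line is the 95th percentile of the negative controls. The red points lie above the blue ones for F3, PLAU, PLAUR and THBS1 and below them for SERPINE2, TFPI and PLAT, while TFPI2 stays under the dotted line on every array.

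Among the plasminogen activators, PLAU (TC1000008054.hg.1), the gene of urokinase, read 5.87 on A01 and 5.87 on A02, and 6.70 on B02, 6.61 on B03 and 6.999 on B04. The groups did not overlap, and the highest value was that of B04. The log2 change was 0.90, a 1.87-fold higher level (95% interval 0.29 to 1.51, adjusted p = 0.174 from limma), which did not pass the test. A larger rise was found in 628 of the 51457 probe sets tested. PLAT (TC0800010275.hg.1), the gene of tissue plasminogen activator, read 5.69 on A01 and 5.39 on A02, and 5.00 on B02, 4.78 on B03 and 4.70 on B04. All 3 resistant arrays were below both parental ones, by at least 0.38. Its log2 change of -0.71 (95% interval -1.32 to -0.10, adjusted p = 0.438 from limma) did not pass. The change of PLAU and that of PLAT thus had opposite signs, and the difference between them was not tested.

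PLAUR (TC1900010856.hg.1), the membrane-anchored receptor that holds urokinase at the cell surface, read 7.59 on A01 and 7.74 on A02. It read 8.28 on B02, 8.07 on B03 and 8.48 on B04, so that every resistant array was above the parental arrays. The log2 change was 0.62 (95% interval 0.01 to 1.23, adjusted p = 0.596 from limma), short of the threshold.

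The inhibitor SERPINE2 (TC0200015876.hg.1), also called protease nexin-1, which blocks thrombin, urokinase and tissue plasminogen activator, had the largest change of the 9 members. It read 6.96 on A01 and 6.90 on A02, and 5.50 on B02, 5.33 on B03 and 4.77 on B04. The closest arrays of the lines were 1.40 apart, more than the SD of 0.04 (n = 2) in MCF10.AT1 and of 0.38 (n = 3) in MCF10.AT1-R. SERPINE2 fell by a log2 change of -1.73, a 3.33-fold lower level (standard error 0.31, adjusted p = 9.82e-06 from limma), and 29 of the 51457 probe sets tested fell further. The call held with each of the 5 arrays left out in turn, where the adjusted p lay between 1.36e-05 and 0.00859. Without the filter on invariant probe sets the adjusted p was 0.0615.

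TFPI2 (TC0700011809.hg.1), a Kunitz-type inhibitor of plasmin and of other matrix-degrading serine proteases, was not above the negative controls on any array. It read 2.42 on A01, 2.496 on A02, 2.55 on B02, 2.60 on B03 and 1.77 on B04. Its change of -0.15 (adjusted p = 0.907 from limma) compares background readings.

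THBS1 (TC1500006925.hg.1) encodes thrombospondin-1, a secreted matrix glycoprotein that binds plasmin and urokinase system components and activates latent TGF-beta. It read 10.70 on A01 and 10.76 on A02, and 11.42 on B02, 11.34 on B03 and 11.41 on B04. Both groups were tight, with SDs of 0.05 (n = 2) and 0.04 (n = 3), and their closest arrays were 0.58 apart. The log2 change was 0.66 (95% interval 0.05 to 1.27, adjusted p = 0.530 from limma). This test used 1 common SD of 0.34 for every probe set, against an SD of 0.04 within the lines for THBS1 itself.

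Of the clotting genes, F3 (TC0100014988.hg.1), which encodes tissue factor, read 6.78 on A01 and 6.75 on A02, and 8.12 on B02, 7.76 on B03 and 8.15 on B04. The lowest resistant array was 0.98 above the highest parental one. F3 rose by a log2 change of 1.24, a 2.37-fold higher level (standard error 0.31, adjusted p = 0.00910 from limma). The rise was the same in sign in every fit, but the call was lost without A01 (adjusted p = 0.191), without A02 (0.242), without B02 (0.0510) or without B04 (0.0590). It was also lost without the filter on invariant probe sets (adjusted p = 0.0884).

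TFPI (TC0200015194.hg.1), the inhibitor of factor Xa and of the complex of tissue factor with factor VIIa, moved the other way. It read 5.07 on A01 and 4.52 on A02, and 3.46 on B02, 3.49 on B03 and 3.11 on B04. The arrays of MCF10.AT1-R stood just above the negative controls, whose 95th percentile on B04 was 2.95. TFPI fell by a log2 change of -1.44, a 2.72-fold lower level (standard error 0.31, adjusted p = 0.000766 from limma), and 74 probe sets fell further. The call was lost without A01, where the change was -1.17 (adjusted p = 0.295), and without the filter on invariant probe sets (adjusted p = 0.0966).

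PROCR (TC2000007209.hg.1), the receptor that presents protein C for activation and a known surface marker of mammary progenitor cells, read 5.01 on A01 and 4.93 on A02. It read 4.73 on B02, 3.70 on B03 and 5.19 on B04, so that B03 was the lowest and B04 the highest of the 5 arrays. The SD was 0.06 (n = 2) in MCF10.AT1 and 0.77 (n = 3) in MCF10.AT1-R, and the change of -0.43 was smaller than the latter (95% interval -1.04 to 0.18, adjusted p = 0.795 from limma). Without B03 the change was -0.01.

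**Figure D3:**
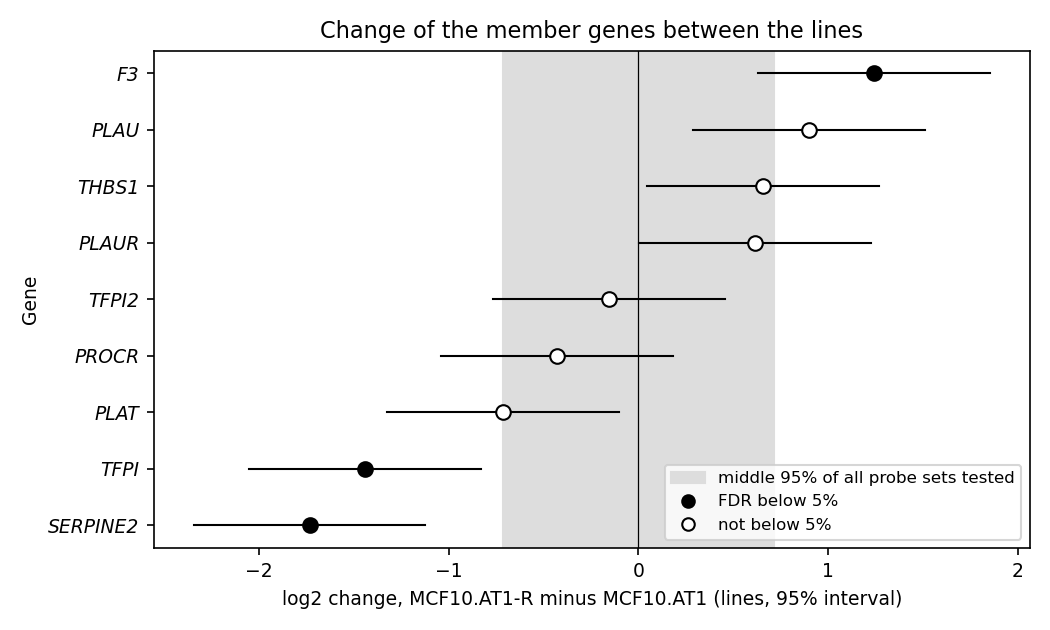
Log2 change of each member, MCF10.AT1-R minus MCF10.AT1, on the x axis, with genes ordered by change. Lines are 95% intervals from limma, filled points have an FDR below 5%, and the grey band holds the middle 95% of all probe sets tested. F3 and PLAU lie right of the band, SERPINE2 and TFPI lie left of it, PLAT lies at its lower edge, and the intervals of PROCR and TFPI2 include 0.

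Because the common SD governs every test, the fit was repeated with limma's trend option, in which the spread expected of a probe set depends on its mean. Then 6 of the 9 members passed an FDR of 5%, as did 2.68% of all probe sets tested. PLAU, PLAUR, THBS1 and F3 were higher, where 1.69% of all probe sets tested were called higher, and SERPINE2 and TFPI were lower, where 0.981% were called lower. The adjusted p was 0.000668 for PLAU, 0.000589 for PLAUR and 0.149 for PLAT. With the filter on low probe sets alone and no trend option, none of the 9 passed in limma, where 7 of them and 8.76% of all probe sets in that fit had an unadjusted p below 0.05.

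On A03 the members read between 1.47 for F3 and 6.29 for THBS1. F3 and TFPI (1.71) were within the negative controls of that array, as were TFPI2 (2.48) and PROCR (2.98). PLAU read 3.68, PLAT 3.66, PLAUR 4.18 and SERPINE2 4.32. With A03 counted as a parental array no member passed an FDR of 5%, and the change of SERPINE2 was -0.86, that of TFPI was -0.41 and that of F3 was 3.01.

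**Figure D4:**
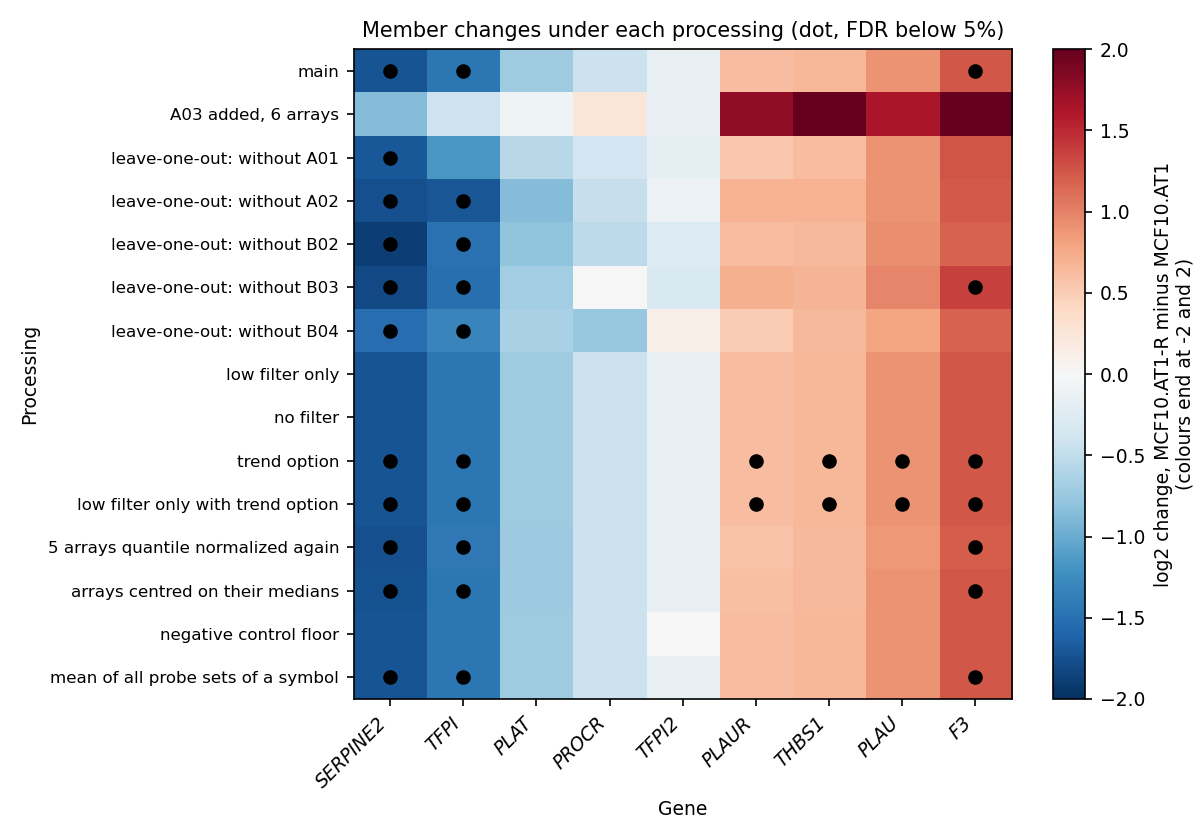
Log2 change of each member (columns) under each processing (rows), coloured from blue for lower to red for higher in MCF10.AT1-R. Black dots mark an FDR below 5%. SERPINE2 has a dot with every array left out in turn, F3 loses it without A01, A02, B02 or B04, and 6 members have dots under the trend option.

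Among 29 other genes of plasminogen activation, binding and clearance, 1 rose and none fell past an FDR of 5%, while 11 were removed by the filters. The riser was SERPINB2, the gene of plasminogen activator inhibitor 2, a serpin that inhibits urokinase. SERPINB2 read 3.40 on A01 and 2.61 on A02, and 7.79 on B02, 7.68 on B03 and 7.83 on B04. A02 was within the negative controls, so low values were raised to 2.99, the mean of the negative controls' 95th percentiles. On those values the level of SERPINB2 was at least 23.7-fold higher (adjusted p = 0.00533 from limma). On the values as deposited the adjusted p from limma was 3.6e-48 with both filters, where 1 common SD served every probe set, and 0.000494 without a filter.

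The next largest changes of that list, among genes above the negative controls, did not pass. ST14, the gene of the membrane protease matriptase, changed by 0.92 (adjusted p = 0.157 from limma), the serpin gene SERPINI1 by 0.85 with overlapping arrays, and the serpin gene SERPINB8 by 0.74. On the lower side, MRC2, which encodes a collagen receptor associated with PLAUR, changed by -0.63, the endocytic receptor gene LRP1 by -0.55 and the plasminogen receptor gene PLGRKT by -0.25. The list's median change was 0.04, and PLG itself, the gene of plasminogen, was within the negative controls on all 5 arrays. With the trend option 5 of these genes passed, namely ANXA2, S100A10, SERPINB2, SERPINB8 and ST14, all of them higher. ANXA2 and S100A10, which form a plasminogen-binding complex at the cell surface and are named here after their values were seen, changed by 0.36 and 0.47, and ANXA2 has pseudogenes that may share probes.

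None of the 31 other coagulation genes passed an FDR of 5% in limma, and 15 were removed by the filters. An unadjusted p below 0.05 was found for 2 of them in limma, and for 8.26% of all probe sets tested. With the trend option 2 passed, GAS6 and VKORC1. GAS6, a vitamin K-dependent ligand of TAM receptors, read 6.05 and 6.17 in MCF10.AT1 and 6.75, 6.80 and 7.03 in MCF10.AT1-R, a change of 0.75 (adjusted p = 0.379 from limma). VKORC1, the vitamin K epoxide reductase, changed by -0.42, and its arrays did not overlap either. F7, the gene of the factor VII that binds tissue factor, changed by -0.36 with overlapping arrays, and MCFD2, a secretory cargo receptor of factors V and VIII, by -0.34. VKORC1L1, removed as invariant, changed by 0.27 and the protease-activated receptor gene F2RL3 by 0.25. The list's median change was 0.05, and 16 of the 31 genes were within the negative controls on all 5 arrays, among them those of factors V, VIII, IX and XI, the fibrinogen chains and thrombomodulin (THBD).

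Of 15 thrombospondin genes, thrombospondin receptors and latent TGF-beta genes, 1 fell and none rose past an FDR of 5%, and 7 were removed by the filters. LTBP1, whose product holds latent TGF-beta in the matrix, read 8.10 on A01 and 8.26 on A02, and 6.30 on B02, 6.21 on B03 and 6.51 on B04. LTBP1 fell by a log2 change of -1.84, a 3.59-fold lower level (standard error 0.31, adjusted p = 1.4e-06 from limma), and it still passed without a filter (adjusted p = 0.0141). With A03 added it did not pass (adjusted p = 0.910). Genes of thrombospondin-binding surface proteins changed by 0.76 (SDC1), 0.47 (ITGAV), 0.24 (ITGB1) and -0.28 (CD47), and TGFB1 changed by -0.28 and THBS3 by -0.15. A second, dimmer THBS3 probe set went the other way, with every resistant array above every parental one (0.79, adjusted p = 0.314 from limma). None of these passed, ITGB1 and the brighter THBS3 probe set having been removed as invariant, while SDC1 passed with the trend option (adjusted p = 0.0206 from limma). The list's median change was -0.08.

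**Figure D5:**
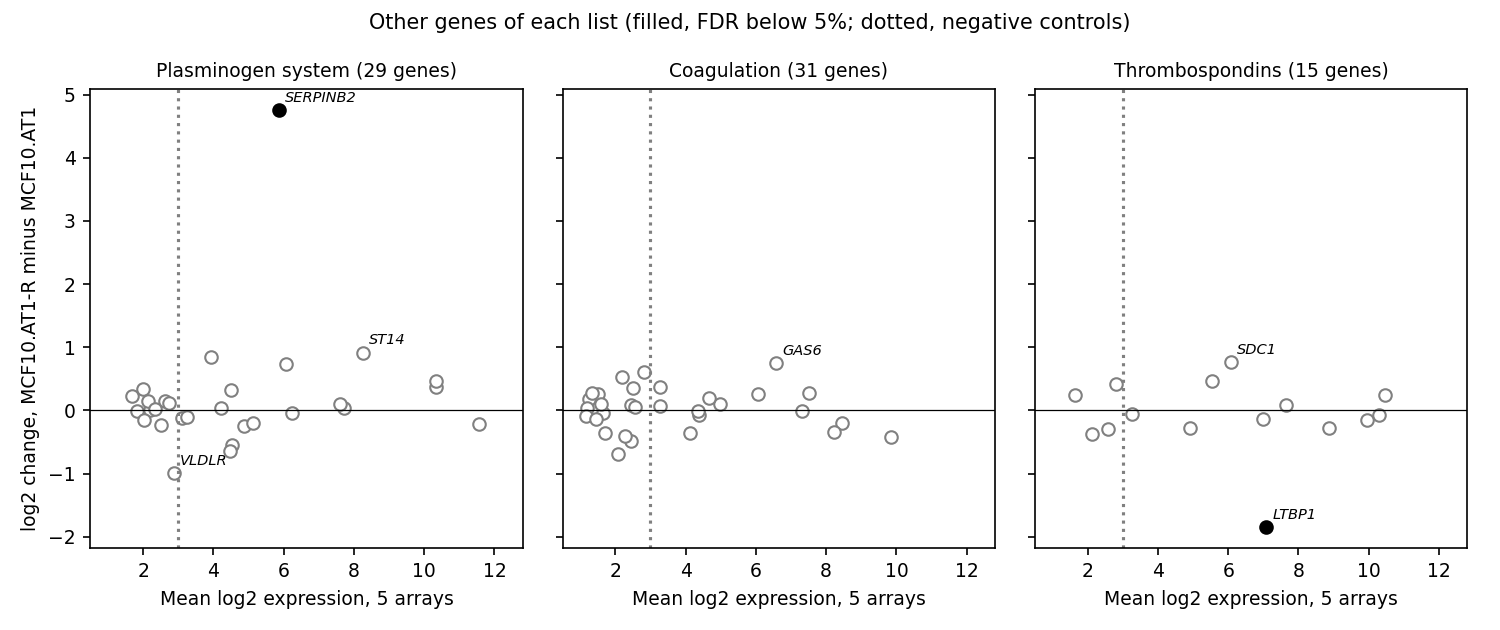
Log2 change (MCF10.AT1-R minus MCF10.AT1, y axis) against mean log2 expression over the 5 arrays (x axis) for the other genes of plasminogen activation, coagulation and the thrombospondin list. Each point is a gene, filled points have an FDR below 5%, and the dotted line is the mean of the negative controls' 95th percentiles. SERPINB2 stands far above the rest, LTBP1 stands below them, and no coagulation gene is filled.

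Some markers of cell types that make these proteins in the body also differed between the lines, while the summed levels for leukocytes, platelets and liver overlapped. Of 6 endothelial markers 1 fell (PECAM1, -1.12), while the arrays of the lines overlapped in the other 5. KDR and TEK were within the negative controls on all 5 arrays. The summed log2 level of the 6 was 19.3 to 19.7 in MCF10.AT1 and 17.0 to 18.9 in MCF10.AT1-R. Of 6 fibroblast markers 1 fell (DCN, -2.15), while the arrays overlapped in the other 5. LUM was within the negative controls, and the sums of the 6 were 27.6 to 27.9 against 24.6 to 26.1. Of 5 leukocyte markers 1 fell (CD14, -1.12) and PTPRC and LYZ were within the negative controls, with sums of 14.6 to 15.8 against 14.4 to 16.0. Of 5 markers of cornifying keratinocytes 2 rose (IVL, 3.23, and KRT1, 1.10) and FLG was within the negative controls, with sums of 14.3 to 14.8 against 18.6 to 20.0. Of the 8 markers on the basal list 5 rose (KRT17, KRT14, TP63, KRT5 and CDH1), with sums of 54.1 to 55.1 against 67.1 to 67.3. Of 6 luminal markers 2 rose (KRT19 and KRT8), with PGR within the negative controls and sums of 32.2 to 33.1 against 36.7 to 38.0. No marker of 5 for platelets and of 4 for liver passed in limma, where 1 and 0 had an unadjusted p below 0.05, beside 8.26% of all probe sets tested. GP1BA and GP9 of the former and ALB and TTR of the latter were within the negative controls, with sums of 14.0 to 14.6 against 14.3 to 15.2 for platelets and of 12.17 to 12.79 against 12.29 to 13.53 for liver. Among all probe sets tested, 0.758% were called higher and 0.447% lower. Without a filter PECAM1 (adjusted p = 0.170 from limma), CD14 (0.157), KRT1 (0.136), KRT8 (0.126) and CDH1 (0.0616) did not pass, while the other marker calls held. The part of these marker differences in the changes of F3, SERPINE2, TFPI, SERPINB2 and LTBP1 was not tested.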

How the data were processed

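RNA of both lines, 3 Clariom D arrays each, was analysed. The authors processed the CEL files by RMA with the Bioconductor packages affy and oligo and deposited log2 values for 138745 probe sets, unfiltered. Versions and genome build are not given in the sources used here. Array names carry no line, and the legend of the study's principal component plot gave it. The 2995 control probe sets were left out of the tests. Probe sets were kept when their mean over 5 arrays (without A03) exceeded the median (1.88) and their SD the lowest 25% (0.18), limits chosen here. Lines were compared with lmFit and eBayes (limma 3.58.1, R 4.3.3), with Benjamini-Hochberg adjustment at FDR 5% over all 51457 probe sets. Dropping invariant probe sets led limma to 1 common SD (0.34), and hence 1 standard error (0.31). Intervals are 95%, unadjusted. The scripts were tested on simulated data. Per symbol, the probe set with the highest mean was used. Named genes are the 9 members, the list genes past FDR 5%, the 3 highest and 3 lowest other changes of each list among genes above the negative controls, and the markers past FDR 5%. The members and lists were chosen with earlier results of these data known. The motifs were chosen after the values were seen. Alternatives varied arrays, filters, variance model, normalization, background floor and probe sets. The number of arrays limits the precision.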

Additional observations from a re-analysis of the deposited data

How the results depend on the processing

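Of the 9 members, 3 passed an FDR of 5%, also after a second quantile normalization of the 5 arrays and after centring of the arrays on their medians. The same 3 passed with all probe sets of a symbol averaged. That averaging could not move the members' values, since each has 1 probe set, and altered only the other values tested with them. The count of members was 0 with A03 added, 0 with the low filter only, 0 without a filter and 0 with values raised to the negative controls' 95th percentile. In these limma fits 2, 7, 7 and 7 members had an unadjusted p below 0.05, beside 3.42%, 8.76%, 6.7% and 12.2% of all probe sets tested. The count of members was 6 with the trend option and 6 with the low filter and the trend option together, where 2.68% and 1.6% of all probe sets passed. With 1 array left out it ranged from 1 to 3, being lowest without A01. The plasminogen list had 1 call, 1 to 2 with an array left out (2 without B03, SERPINB2 and SERPINI1), 5 with the trend option and 4 with that option and the low filter. The coagulation list had 0, and 2 under each fit with the trend option. The thrombospondin list had 1, 0 with A03 added and 2 with the trend option. PROCR changed by 0.24 with A03 added, in place of -0.43, and TFPI2 by -0.30 to 0.11 with an array left out. All other changes of members kept their sign in the 14 alternatives. Over all probe sets 620 passed, against 26 with A03 added, 182 with the low filter only, 177 without a filter, 272 with the floor, 1377 with the trend option, 1086 with that option and the low filter, 314 without A01 and 271 without A02. Where a single MCF10.AT1 array remained, it was assumed to vary like the others. No paired analysis was possible because the array names carry no replicate numbers that match the labels. Signals near the negative controls limit TFPI in MCF10.AT1-R, SERPINB2 in MCF10.AT1 and TFPI2 in both lines.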
